A study of Mus musculus with 4 samples.

Results

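The imprinted growth genes are 10 genes of which mainly the copy inherited from 1 parent is transcribed: *H19*, *Igf2*, *Meg3*, *Dlk1*, *Plagl1*, *Peg3*, *Mest*, *Grb10*, *Ndn* and *Snrpn*. They were chosen by gene name and are 10 of 34797 gene names on the array, with 27 of its 55681 probes. Expression was measured on 4 mouse arrays of 2 colours in neural stem/progenitor cells (NSPCs), which are cultured with EGF and FGF and retain the ability to divide and to form neurons and glia. The cells came from embryos of Slc:ICR mice at embryonic day 13.5, either wild-type or Trp53-/-, that is, without the gene for the tumor suppressor p53. The Trp53-/- line goes back to heterozygous mice of a repository. In both genotypes, RNA of cells treated with 20 μM PJ34, an inhibitor of poly(ADP-ribose) polymerases, was labelled with Cy5, and RNA of untreated control cells with Cy3. Each pair was hybridized to 1 array, with 2 arrays per genotype from separately prepared RNA. How long the cells of the arrays were treated is not given in the sources used here.

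Imprinting marks the copy from the mother or from the father with DNA methylation in the germ line, so that the mark tells the copies apart in the embryo. Several of the genes lie side by side and share a control region: *Igf2*, a growth factor made from the paternal copy, lies beside *H19*, a noncoding RNA made from the maternal copy, and *Dlk1*, a paternal transmembrane protein related to Notch ligands, lies beside *Meg3*, a maternal noncoding RNA. Paternal genes of this group tend to favor growth of the embryo and maternal genes tend to restrain it. Many of them are known to be expressed strongly in the embryo and to fall after birth, and some remain in use in neural stem cells. The arrays do not tell the maternal from the paternal copy, so only the summed RNA of both was measured.

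Between 26075 and 27154 probes per array stood well above background for PJ34 and between 21503 and 24536 for the control, and the number of arrays limits the precision. All 9 NSPC markers, *Nes* and *Sox2* among them, were measurable. Because PJ34 was labelled with Cy5 on every array, a bias of the dyes cannot be told apart from a response to PJ34 within a genotype. The array of Trp53-/- replicate 2 stood apart in genes of the Y chromosome: *Ddx3y* had a log2 ratio of PJ34 over control of 3.12 there and between -0.20 and 0.18 on the other arrays, and *Eif2s3y* had 4.22 against values from -0.20 to 0.84. In the control channel, *Ddx3y* had log2 intensities of 8.25 and 8.06 in wild-type, and was not well above background in Trp53-/- (6.04 and 6.17). *Xist*, which is transcribed from the inactive X chromosome, went the other way, with -3.08 on this array and 0.38, 0.81 and 0.56 on the others. The sources used here do not say whether the treated and control cells of an array came from embryos of the same sex. Where leaving out this array ended a call of a member, or of a gene named from the imprinted and IGF lists below, this is said beside it. For the cell type markers and *Cdkn1a*, no fit with an array left out is given. The control channels of the 2 wild-type arrays also differed more from each other than those of Trp53-/-: the gap between replicates was above 1 on the log2 scale for 3.57% of the probes in wild-type and 0.196% in Trp53-/-. *Trp53* itself had control log2 intensities of 8.28 and 8.51 in wild-type and 7.56 and 7.82 in Trp53-/- (difference -0.71, q = 0.0585), and its target *Cdkn1a* was lower in untreated Trp53-/- cells by 2.70 on the log2 scale (q = 0.0115).

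In response to PJ34, *Mest* fell in both genotypes, *Peg3* rose in both, and *Meg3* and *Dlk1* rose in wild-type, all by less than 2-fold. In such bulk RNA, fewer cells of a type and less RNA per cell cannot be told apart. Of the 27 probes, 23 probes of 9 genes passed the filter on dim signals, which required 1 channel well above background on both arrays of a genotype. A gene was called by the criteria in the methods of the study, p and Storey's q (an estimate of the false discovery rate) below 0.05 and more than 2-fold, and was also counted without the fold limit. By the first rule, no member probe was called in wild-type, where 0.263% of the 27035 probes tested were called higher and 0.174% lower. In Trp53-/-, likewise 0 were called, against 0.0703% higher and 0.248% lower over all probes. Without the fold limit, 4 member probes were higher and 4 lower in wild-type, against 12.3% and 10.4% of all probes. In Trp53-/-, 2 were higher and 5 lower, against 12% and 9.68%. At an unadjusted p below 0.05, 4 were higher and 6 lower in wild-type, against 16.6% and 13.7% of all probes, and 5 and 6 in Trp53-/-, against 17.1% and 12.9%. Of the 23 probes, 4 passed the filter through Trp53-/- only (3 of *H19* and the *Grb10* probe) and 1 of *Plagl1* through wild-type only. The median log2 ratio of the 23 probes was -0.10 in wild-type, beside 0.028 for all probes, and 0.042 in Trp53-/-, beside 0.032. These ratios are relative to the bulk of the probes of an array. When the arrays were centred on their median in place of loess, the median of all tested probes itself rose to 0.42 in wild-type and 0.57 in Trp53-/-, and 7 member probes were then higher and 0 lower in wild-type, and 18 and 0 in Trp53-/-.

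**Figure D1:**
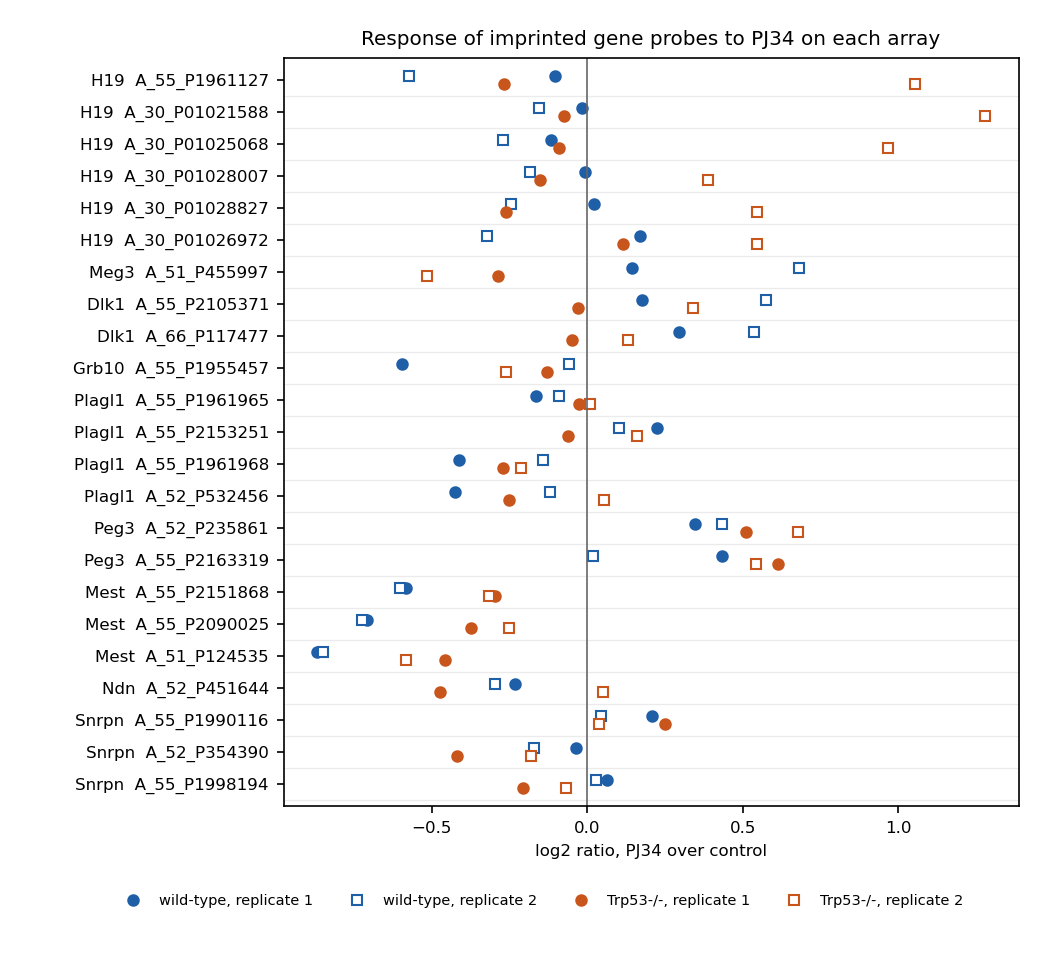
The log2 ratio of PJ34 over control (x axis) of each of the 23 measurable probes (y axis, by gene) on each of the 4 arrays, wild-type in blue and Trp53-/- in orange, with filled circles for replicate 1 and open squares for replicate 2. All 4 values of each *Mest* probe lie below 0 and all 4 of each *Peg3* probe above 0, while the 6 *H19* probes are at 0.39 or higher on the array of Trp53-/- replicate 2 and at 0.17 or lower on the others.

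*Mest*, a paternal gene for an enzyme-like protein of the alpha/beta hydrolase fold that is known for its effect on embryo growth, fell in both genotypes with all of its probes. It has 3 probes on chromosome 6 (mm9), at 30692160-30692219, 30697385-30697444 and 30698279-30698338 of the plus strand. The last of them, A_51_P124535, is printed 10 times on each array and gave log2 ratios of -0.87 and -0.85 for wild-type and -0.46 and -0.58 in Trp53-/-. The values of the genotypes did not overlap, with wild-type lower. In wild-type the mean was -0.86 (SE 0.09, q = 0.000205), a 1.81-fold fall, and in Trp53-/- it was -0.52 (SE 0.09, q = 0.00266), a 1.43-fold fall. Both other probes fell as well: A_55_P2090025 by 0.72 and A_55_P2151868 by 0.59 in wild-type, and by 0.31 each in Trp53-/-. The difference between the genotypes, tested as wild-type minus Trp53-/-, was -0.34 for A_51_P124535 (95% interval -0.62 to -0.06, q = 0.195), -0.41 for A_55_P2090025 (q = 0.135) and -0.29 for A_55_P2151868 (q = 0.254), so a larger fall in wild-type was not established after adjustment over all probes. With 1 Trp53-/- array left out, only A_51_P124535 kept a q below 0.05 in Trp53-/- (-0.58 without replicate 1 and -0.46 without replicate 2). Under median centring the wild-type values were -0.15, -0.05 and -0.03, which did not pass, and the Trp53-/- values turned to 0.43, 0.58 and 0.39 for A_51_P124535, A_55_P2090025 and A_55_P2151868, near the median of 0.57 for all probes.

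A promoter of *Mest* is shown because the maternal copy is known to carry methylation in this region. The 250 bases before a downstream transcription start are given on the plus strand of GRCm38.p6 (RefSeq), with the motif TGCCGC on either strand in capitals, the hexamer bound in its methylated form by ZFP57, a zinc finger protein that keeps imprints in place after fertilization.
*Mest* promoter, chr6:30737800-30738049: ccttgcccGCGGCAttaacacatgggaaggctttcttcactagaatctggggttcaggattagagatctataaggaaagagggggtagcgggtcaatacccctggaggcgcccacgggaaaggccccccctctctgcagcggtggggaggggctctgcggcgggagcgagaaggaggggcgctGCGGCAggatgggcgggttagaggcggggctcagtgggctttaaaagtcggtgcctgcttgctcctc
The window holds 2 matches, both on the opposite strand, and 14 CpG dinucleotides, against a median of 6 over 32851 RefSeq promoters. Of all these promoters, 8.68% held the motif in the same window. Among the 19 windows found for 9 of the 10 genes (*H19* has none in the table), 4 held it: 2 overlapping ones of *Mest*, and 1 each of *Plagl1* and *Meg3*. A match is a description of the letters, and no binding was measured here.

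*Peg3*, a paternal gene for a zinc finger protein that takes part in growth, maternal behavior and p53-linked cell death, rose in both genotypes. Its probe A_52_P235861 (mm9, chromosome 7, 6658774-6658833, minus strand) gave log2 ratios of 0.35 and 0.43 for wild-type and 0.51 and 0.68 in Trp53-/-. The mean was 0.39 in wild-type (SE 0.09, q = 0.00904, 1.31-fold) and 0.59 in Trp53-/- (SE 0.09, q = 0.0018, 1.51-fold). The second probe, A_55_P2163319 (6661407-6661466), had 0.43 and 0.02 in wild-type, where its mean of 0.23 did not pass the test (q = 0.0982), and 0.61 and 0.54 in Trp53-/-, a mean of 0.58 (q = 0.00383). Both arrays of Trp53-/- were thus above both of wild-type for either probe. The differences of -0.20 (95% interval -0.50 to 0.09) and -0.35 (95% interval -0.69 to -0.01) between the genotypes did not pass the test (q = 0.40 and 0.259). Without wild-type replicate 2, A_52_P235861 had 0.35 in wild-type and no longer passed (q = 0.0938), while without Trp53-/- replicate 2 it had 0.51 in Trp53-/- (q = 0.0295).

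*Meg3* is the one gene of the group whose response passed the test of a difference between the genotypes, without the fold limit. Of its 3 probes on the plus strand of chromosome 12, 1 was measurable. It is shown with a probe that did not pass, since they sample different parts of the same noncoding RNA locus.
A_52_P196568, chr12:110799558-110799617 (mm9): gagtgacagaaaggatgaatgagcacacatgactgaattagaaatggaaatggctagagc
A_51_P455997, chr12:110809678-110809737 (mm9): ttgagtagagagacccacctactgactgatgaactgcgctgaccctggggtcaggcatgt
The measurable probe, A_51_P455997, gave log2 ratios of 0.14 and 0.68 for wild-type and -0.29 and -0.51 in Trp53-/-. Both wild-type values were above 0 and both Trp53-/- values below it. Its mean was 0.41 in wild-type (SE 0.13, q = 0.0251) and -0.40 in Trp53-/- (SE 0.13, q = 0.0293). The first was 0.14 (q = 0.386) without wild-type replicate 2, and the second -0.29 (q = 0.266) without Trp53-/- replicate 2, so each call rests on 1 array. The difference of 0.81 (SE 0.18, q = 0.0476) was the only member value that passed the test of the difference without the fold limit, against 1.11% of all probes higher and 0.355% lower. At an unadjusted p below 0.05, 2 member probes were higher and 6 lower, against 7.06% and 6.92%. With the fold limit none was called, against 0.399% and 0.0222%. In the control channel of wild-type, *Meg3* was not well above background on either array. The measured 1.33-fold rise there is therefore not exact, and it is open to dye bias. The difference was 0.55 (q = 0.133) without wild-type replicate 2 and 0.70 (q = 0.0976) without Trp53-/- replicate 2, the array with the divergent Y-linked signals. No background correction, the smaller offset, the scanner software's ratios, median centring and Benjamini-Hochberg adjustment each ended the call, and the stricter filter removed the probe. The difference was between 0.75 and 1.82 under the 9 settings that kept all arrays and the probe.

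*Dlk1*, the protein-coding neighbor of *Meg3*, has 2 probes whose starts lie 219 bases apart. The brighter one, A_66_P117477 (mm9, chromosome 12, 110698721-110698781), gave log2 ratios of 0.29 and 0.54 for wild-type and -0.05 and 0.13 in Trp53-/-. The wild-type mean of 0.42 passed the test (SE 0.10, q = 0.00938, 1.33-fold) and the Trp53-/- mean of 0.04 did not (q = 0.408). Their difference of 0.37 (95% interval 0.06 to 0.69) did not pass either (q = 0.196). The other probe, A_55_P2105371, rose by 0.38 in wild-type (q = 0.0313) and had 0.16 in Trp53-/- (q = 0.211). Its wild-type control channel was not well above background, so the size of this rise is not exact. Without wild-type replicate 2 the value for A_66_P117477 was 0.29 (q = 0.145).

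**Figure D2:**
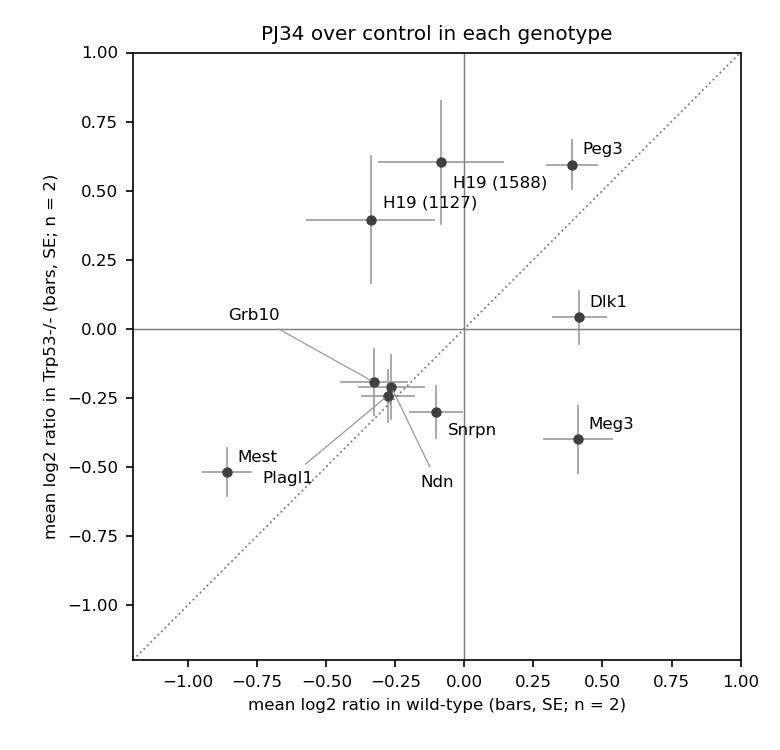
The mean log2 ratio of PJ34 over control in wild-type (x axis) against Trp53-/- (y axis) for 1 probe of each gene and 2 of *H19*, marked with the last 4 digits of the probe's number; bars are standard errors of the fit (n = 2 arrays each) and the dotted line marks equal responses. *Meg3* lies at 0.41 and -0.40 and *Mest* at -0.86 and -0.52, while the 2 *H19* probes lie left of 0 in wild-type and above 0 in Trp53-/-.

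*H19* has 7 probes on the minus strand of chromosome 7 (mm9), from 149761492 to 149762476, and 6 of them were measurable. The sequences of the brightest probe, of the probe that was called between untreated cells and of the one that never stood well above background are shown, to set the signals beside the parts of the RNA they read.
A_55_P1961127, chr7:149761492-149761551 (mm9): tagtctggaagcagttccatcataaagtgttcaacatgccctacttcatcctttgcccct
A_30_P01021588, chr7:149761693-149761752 (mm9): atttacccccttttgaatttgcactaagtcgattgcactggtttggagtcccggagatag
A_55_P1961125, chr7:149762417-149762476 (mm9): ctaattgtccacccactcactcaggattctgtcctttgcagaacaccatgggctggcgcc
In wild-type, A_55_P1961127 had log2 ratios of -0.10 and -0.57, and in Trp53-/- it had -0.27 and 1.05. A_30_P01021588 had -0.02 and -0.15 in wild-type, and -0.08 and 1.28 in Trp53-/-. A_30_P01025068, the third probe, had -0.12 and -0.27, then -0.09 and 0.97. The high value came from the same array each time, Trp53-/- replicate 2, and the 3 dimmer probes had between 0.39 and 0.55 there. No *H19* probe passed the test in either genotype: the means of these 3 probes were between -0.34 and -0.09 in wild-type and 0.39, 0.60 and 0.44 in Trp53-/- (q = 0.144, 0.0527 and 0.072). Without Trp53-/- replicate 2 Trp53-/- had -0.27, -0.08 and -0.09. Without replicate 1 the values became 1.05, 1.28 and 0.97. A fit with 1 Trp53-/- array takes its spread from wild-type alone, so its q values are not given. The value for A_55_P1961127 in wild-type stayed at -0.34 in these fits. The ratios of the astrocyte marker *Gfap* were -0.28 and -0.13 on wild-type replicates 1 and 2. They were -0.00018 and 1.62 on Trp53-/- replicates 1 and 2. *Gfap* thus went with the *H19* probes, as did the Y-linked genes named above. *Aqp4*, another astrocyte marker, did not, with -0.18 and -0.19 on Trp53-/- replicates 1 and 2. Of the 5 astrocyte markers, 2 were higher and 1 lower in Trp53-/- without the fold limit, and their median log2 ratio was -0.065. The part of *Gfap* or of the Y-linked genes in the *H19* values was not tested.

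*Igf2*, which shares its enhancers with *H19*, has 1 probe, A_55_P2118173 (mm9, chromosome 7, 149839661-149839720), which was not well above background in any channel of any array. It was not tested, and these arrays set no level for it in either genotype.

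The remaining genes moved little. *Plagl1*, a paternal zinc finger transcription factor that restrains the cell cycle and acts on other imprinted genes, has 4 probes on chromosome 10. A_55_P1961968 gave log2 ratios of -0.41 and -0.14 for wild-type and -0.27 and -0.21 in Trp53-/-, with a fall of 0.28 in wild-type (q = 0.0417) and a mean of -0.24 in Trp53-/- (q = 0.0629). The wild-type value was 0.31 under median centring and -0.14 without wild-type replicate 1. A_52_P532456, which starts 448 bases away and shares a run of 26 bases with it, had -0.27 (q = 0.0639) and -0.10 (q = 0.294), so these readings may not be independent. Both dimmer *Plagl1* probes had means between -0.13 and 0.16. *Grb10*, an adaptor protein that restrains signalling of the insulin and IGF receptors, had -0.59 and -0.06 in wild-type and -0.13 and -0.26 in Trp53-/-, which did not pass the test (q = 0.0508 and 0.16). *Ndn*, which encodes a MAGE family protein that restrains growth, had means of -0.26 and -0.21 (q = 0.0856 and 0.135). *Snrpn*, which encodes a spliceosome protein of neurons, has 3 probes, of which A_52_P354390 fell in Trp53-/- by 0.30 (q = 0.0328, ratios of -0.42 and -0.18). The call was lost without either Trp53-/- array (-0.18 without replicate 1 and -0.42 without replicate 2). In wild-type it had -0.10 (q = 0.267), and the other *Snrpn* probes had means between -0.14 and 0.14 with q values above 0.17.

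In untreated cells, 1 of the 6 measurable *H19* probes and 1 of the 2 *Peg3* probes were called higher in Trp53-/- than in wild-type. Neither call held without Trp53-/- replicate 1 or without replicate 2. *Mest* was measured lower in Trp53-/- without passing the test. The comparison of untreated cells sets control channels of the same dye side by side, so a dye bias cancels. Of the 23 probes, 2 were called higher and 0 lower in Trp53-/-, against 1.67% and 1.65% of all probes called. Without the fold limit the counts were the same, 2 and 0, against 3.13% and 2.91%. A separate-channel model, which fits both dyes of all arrays together, gave 1 higher and 2 lower. At an unadjusted p below 0.05, 11 were higher and 3 lower, against 10.9% and 11.4% of all probes. Of the 11, 6 were probes of *H19*, and 3 of these passed the filter through Trp53-/- only, where they are higher. Both Trp53-/- values were above both wild-type values for 12 probes and below both for 4, against 28.3% and 26.9% of all probes. The median difference of the 23 probes, Trp53-/- minus wild-type, was 0.39 on the log2 scale, beside 0.012 for all probes. The 6 *H19* probes enter these counts and the median, and they are not independent readings. Because 3 of them were kept only through the genotype where they are higher, these counts and the median are no test.

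**Figure D3:**
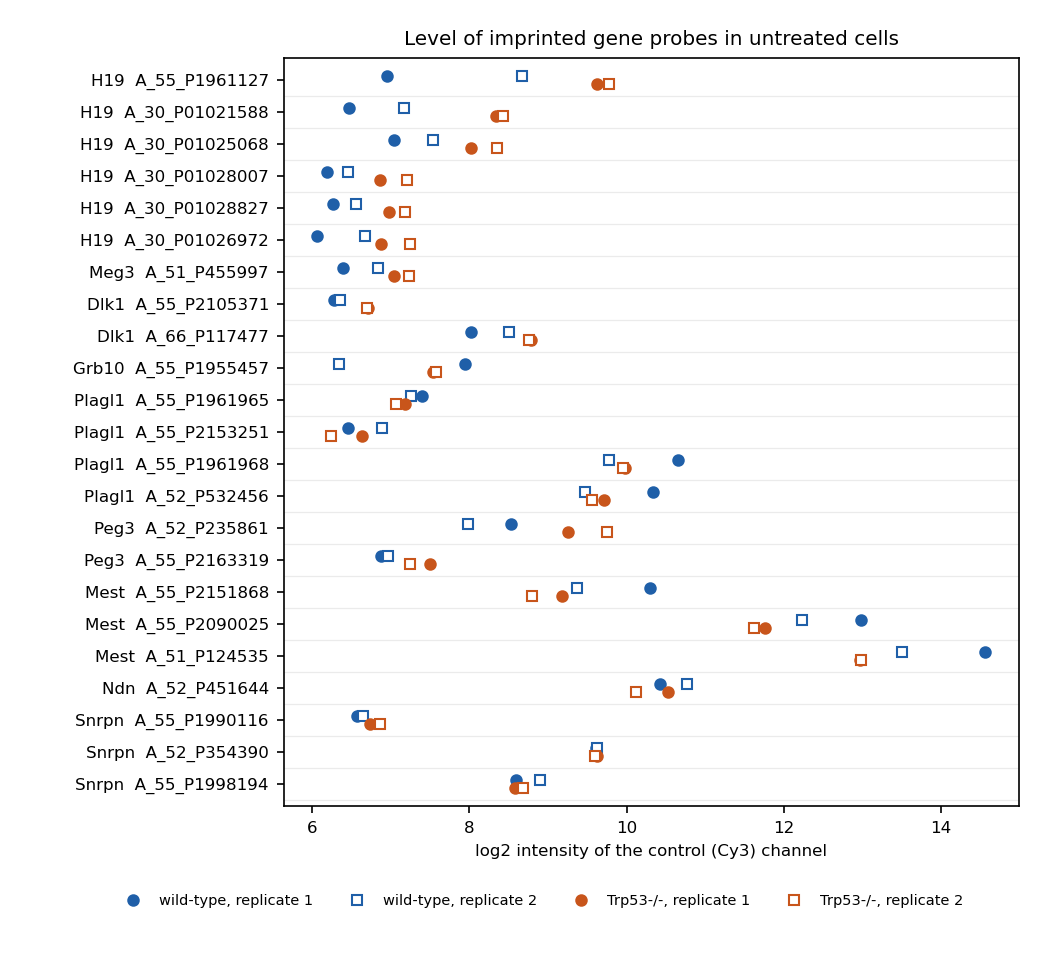
The log2 intensity of the control channel (x axis, normalized) of each of the 23 measurable probes on each array; colors and symbols stand for genotype and replicate as in the legend. Different probes cannot be compared in level, but for each probe the orange symbols show Trp53-/- and the blue ones wild-type: all 6 *H19* probes are higher in both Trp53-/- arrays and all 3 *Mest* probes lower.

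The probe A_30_P01021588 of *H19* had control log2 intensities of 6.47 and 7.17 in wild-type and 8.33 and 8.43 in Trp53-/-. The groups did not overlap, and the difference of 1.56 (SE 0.26, q = 0.0248) was 2.95-fold. This control signal stood well above background on only 1 of the wild-type arrays, so the size is not exact. A_55_P1961127, the brightest, had 6.95 and 8.67 in wild-type and 9.62 and 9.77 in Trp53-/-. Its wild-type replicates were 3.31-fold apart, and the difference of 1.89 (SE 0.52, 3.70-fold) did not pass the test (q = 0.0649). Without wild-type replicate 1 it was 1.02, and without replicate 2 it was 2.75. A_30_P01025068, 264 bases upstream of A_55_P1961127, had 0.90 (q = 0.058). The next 3 probes, 465 to 681 bases upstream, passed the filter through Trp53-/- only, where they are higher, so their differences are no test. A_30_P01028007 and A_30_P01028827 did not stand well above background in wild-type, and no size is given for them. The most distant probe, A_55_P1961125 at 925 bases, was between 5.90 and 6.20 on all arrays, not well above background. Signals near background understate a difference, so the sizes of these probes are not compared along the RNA. Without Trp53-/- replicate 1 or 2, the difference for A_30_P01021588 was 1.61 (q = 0.206) or 1.51 (q = 0.409), and without wild-type replicate 1 or 2 it was 1.21 or 1.92. The last 2 take their spread from the Trp53-/- arrays alone, which lie closer together than those of wild-type, so their q values are not given.

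**Figure D4:**
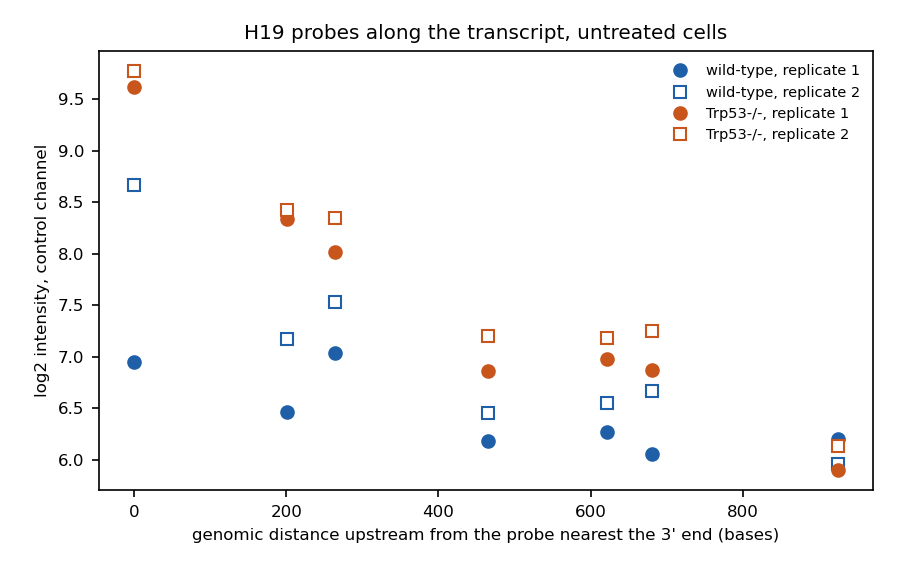
The log2 intensity of the control channel (y axis) of the 7 *H19* probes by their genomic distance upstream from the probe nearest the 3' end (x axis, bases), for each array. Each probe is to be read for itself: from 0 to 681 bases both Trp53-/- arrays lie above both wild-type arrays, and at 925 bases the 4 arrays lie together near background.

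*Peg3* was also called, by A_52_P235861. Its control log2 intensities were 8.52 and 7.98 in wild-type and 9.26 and 9.75 in Trp53-/-, with no overlap, and the difference was 1.25 (SE 0.26, q = 0.0388, 2.38-fold). The other *Peg3* probe, A_55_P2163319, had 6.87 and 6.96, then 7.50 and 7.24, a difference of 0.45 (q = 0.118). Without Trp53-/- replicate 1 or 2 the difference for A_52_P235861 was 1.50 (q = 0.206) or 1.00 (q = 0.597). Such a fit leaves 1 array in Trp53-/-, whose spread is taken from wild-type.

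*Mest* went the other way. A_51_P124535 had control log2 intensities of 14.56 and 13.51 in wild-type and 12.97 and 12.99 in Trp53-/-, a difference of -1.06 (SE 0.34, q = 0.0856). Both wild-type values were above both Trp53-/- values, but the wild-type replicates themselves were 2.07-fold apart. A_55_P2090025 and A_55_P2151868 had -0.91 (q = 0.0738) and -0.85 (q = 0.116). *Meg3* had 0.53 (q = 0.124) and the brighter *Dlk1* probe A_66_P117477 had 0.51 (q = 0.13), both higher on each Trp53-/- array than on either wild-type array without passing the test. *Grb10* had 7.94 and 6.34 in wild-type and 7.54 and 7.58 in Trp53-/-: the Trp53-/- values lay between the wild-type replicates, which were 3.05-fold apart. The *Plagl1* probes had differences between -0.27 and -0.20, *Ndn* -0.27 and the *Snrpn* probes between -0.12 and 0.19, with q values of 0.294 or more. *Snrpn* A_52_P354390 was the steadiest, between 9.59 and 9.63 on all 4 arrays.

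Some markers of differentiated cells differed between untreated genotypes, and others of the same lists did not. Of 5 astrocyte markers on the array, all 5 were measurable and 2 were called higher in Trp53-/-, *Gfap* by 2.38 and *S100b* by 1.89 on the log2 scale. Of 8 oligodendrocyte markers, 8 were measurable and 2 were called higher, *Mbp* by 1.98 and *Mag* by 1.58. Other members were measured lower without passing the test, among them *Aldh1l1* (-0.58) and *Gja1* (-0.10) of the astrocyte list and *Pdgfra* (-0.71) and *Mog* (-0.41) of the oligodendrocyte list. Of 7 neuron markers, 6 were measurable and 1 was called higher, *Rbfox3* by 1.24. The summed control intensity (log2) of the astrocyte list was 10.70 and 11.63 in wild-type and 11.52 and 11.54 in Trp53-/-, that of the oligodendrocyte list 15.38 and 15.30 against 15.52 and 15.28, and that of the neuron list 13.43 and 12.84 against 14.39 and 13.99. Of 5 endothelial markers 2 were measurable, and *Kdr* was called lower by 1.34. Of 9 meningeal and mesenchymal markers 7, including *Col1a1*, *Col3a1*, *Dcn* and *Lum*, were not measurable. *Col1a2* and *Foxc1* were, and neither was called (summed log2 intensity of the list 9.01 and 8.89 against 9.15 and 9.19). Of 7 microglia and blood markers only *Csf1r* was measurable. No fit with an array left out is given for the markers of these lists. Over all probes, 1.67% were called higher and 1.65% lower. The part of the cell types of all these lists, and of the Y-linked difference between the genotypes, in the levels of *H19*, *Peg3* and *Mest* was not tested.

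**Figure D5:**
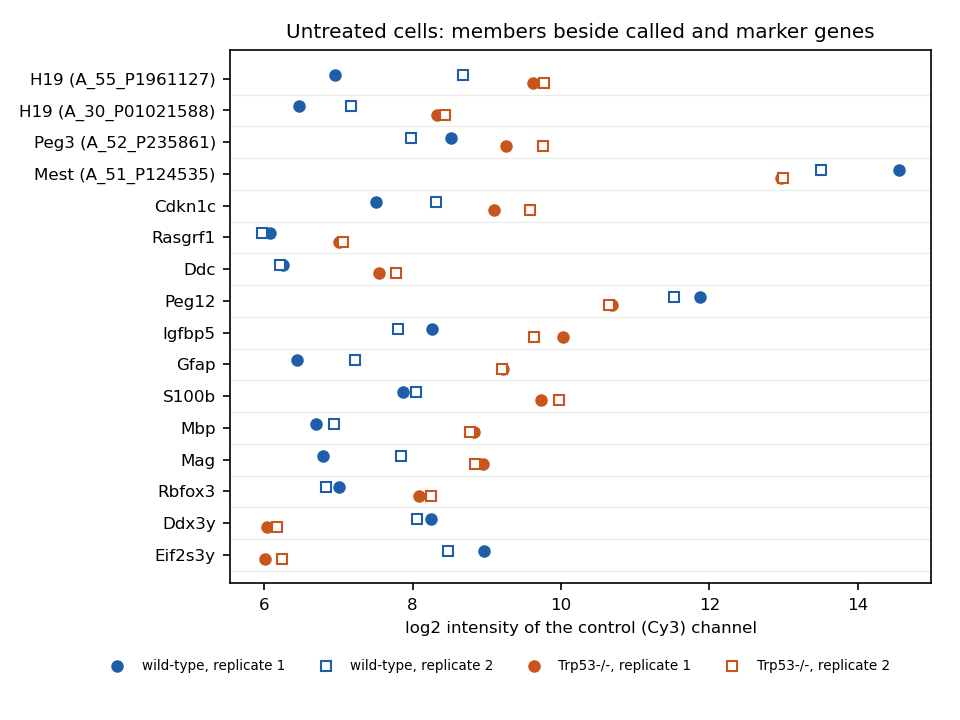
The log2 intensity of the control channel (x axis) on each array for *H19*, *Peg3* and *Mest* probes, for other imprinted genes and *Igfbp5* that were called between untreated genotypes, and for markers of astrocytes, oligodendrocytes and neurons and Y-linked genes (y axis). For *Gfap* and *Mbp* the Trp53-/- replicates (orange) stand above wild-type (blue) by 2.38 and 1.98 log2 units, while *Ddx3y* and *Eif2s3y* are near background in Trp53-/-.

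Among 46 other imprinted genes, 44 have a probe and 33 were measurable. PJ34 changed 1 of them past 2-fold, *Dhcr7*, the last enzyme of cholesterol synthesis, which is imprinted in only some tissues and fell by 1.15 in wild-type (q = 0.000211) and by 0.69 in Trp53-/- (q = 0.00294). *Dhcr7* had ratios of -0.91 and -1.40 on wild-type replicates 1 and 2, and only the second is past 2-fold. Of all probes, 0.174% were called lower in wild-type. Without the fold limit, 9 were higher and 3 lower in wild-type, against 12.3% and 10.4% of all probes. In Trp53-/-, 7 were higher and 5 lower, against 12% and 9.68%. *Igf2r*, the receptor that takes up and removes Igf2, was among those that rose in both genotypes (0.75 and 0.61). In untreated cells 3 were called higher in Trp53-/- and 1 lower, against 1.67% and 1.65% of all probes. *Cdkn1c*, a maternal inhibitor of cyclin-dependent kinases, was higher by 1.43 (q = 0.0419). The others were *Ddc*, an enzyme of dopamine synthesis, and *Rasgrf1*, a paternal activator of Ras. In untreated cells, *Ddc* and *Rasgrf1* stood well above background in Trp53-/- only, where they are higher. Their calls are therefore no test, and no size is given. None of these calls held without Trp53-/- replicate 1 or without replicate 2, in fits that take their spread from wild-type. *Cdkn1c* then had 1.67 or 1.19. *Peg12*, a paternal gene near *Ndn* and *Snrpn*, was called lower by 1.03 (q = 0.0291). It had -1.06 without Trp53-/- replicate 1 and -1.01 without replicate 2, and neither passed. Like *Mest* it fell with PJ34, by 0.70 in wild-type and 0.36 in Trp53-/-, without reaching 2-fold. The Trp53-/- value of *Peg12* was -0.25 without replicate 1 and -0.46 without replicate 2. *Rasgrf1* and *Ddc* fell with PJ34 in Trp53-/-, by 0.52 (q = 0.00307) and 0.86 (q = 0.000432). In wild-type a fall could not have been seen, so their difference between the genotypes is not read. The median log2 ratio of the list was 0.15 in wild-type and 0.088 in Trp53-/-, beside 0.030 and 0.032 for all genes.

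Of 22 genes of IGF and insulin signalling, 21 were measurable. None was called in either genotype in response to PJ34. Without the fold limit 7 were higher and 2 lower in wild-type, against 12.3% and 10.4% of all probes. In Trp53-/- 5 were higher and 3 lower, against 12% and 9.68%. The substrates *Irs1* and *Irs2*, which carry the signal from the receptors, rose in both (0.40 and 0.36 in wild-type, 0.33 each in Trp53-/-), and *Igf2bp3*, which binds *Igf2* mRNA, fell in both (by 0.53 and 0.41). Without Trp53-/- replicate 2, *Irs2* (0.27) and *Igf2bp3* (-0.29) no longer passed in Trp53-/-. *Irs1* had 0.18 in Trp53-/- without replicate 1 and 0.49 without replicate 2. In wild-type, *Irs1* had 0.40 without either array, and *Irs2* had 0.31 without replicate 1 and 0.41 without replicate 2. Neither gene passed in these wild-type fits. *Igfbp5*, a secreted protein that binds IGFs, was called in the difference between the genotypes. It had ratios of 0.94 and 0.72 in wild-type and -0.22 and -0.56 in Trp53-/-, a difference of 1.22 (SE 0.15, q = 0.00466). Without Trp53-/- replicate 2 the difference was 1.04 (q = 0.0038), while the Trp53-/- value of -0.39 (q = 0.0187) became -0.22 (q = 0.328). In untreated cells it had 8.26 and 7.81 in wild-type and 10.02 and 9.64 in Trp53-/-, a difference of 1.80 (q = 0.0173), which did not pass without Trp53-/- replicate 1 (1.61, q = 0.188) or 2 (1.99, q = 0.225). The control channel enters this difference and that of the responses, with opposite sign, so they are not independent.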

How the data were processed

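Total RNA of PJ34-treated (Cy5) and control (Cy3) NSPCs was hybridized to SurePrint G3 Mouse GE 8x60K arrays, with no dye swap. Per the file headers, the deposited spot and local background intensity values were read with Agilent Feature Extraction 10.7.3.1, which also gave background-subtracted, dye-normalized signals and a log10 ratio per spot. A deposited table of the whole series has 4 columns of values that match no sample label and was not used. Here, intensities were corrected with normexp (offset 50) and log2 ratios normalized by loess within arrays with limma 3.58.1 in R 4.3.3, with control spots left out and outlier spots at weight 0, and spots were averaged per probe. Control levels were log2 intensities after Aquantile normalization. limma was fitted over all 27035 probes with a channel well above background on both arrays of a genotype, with genotype means and 2 residual degrees of freedom (10.5 for ratios and 6.18 for levels after moderation). Storey q values were computed over the same probes, and intervals are at 95%. In gene lists, the brightest probe that passed stood for its gene. The shares of all probes beside the lists count every tested probe, so the 2 are not strictly alike. All member probes were reported. Other genes are named where they were called, moved with a member or served as a check. An array with an older annotation lacked the name of 1 *H19* probe, so names were joined over the arrays. Members and lists were chosen with earlier results of these data known. The replicates are separately prepared RNA, so p-values measure the spread between these preparations. Replicate numbers join cells of different genotypes, and same-numbered deviations correlated at -0.169 for ratios and 0.0743 for control levels, so no pairing was used. The fit was tested on simulated data. A further marker gene and a further probe sequence are not reported here. Promoter windows and their positions came from RefSeq (GRCm38.p6), probe positions from the arrays (mm9), and these builds were not mixed. Alternatives covered background correction, normalization, filter, variance model, adjustment, replicate block and each array left out.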

Additional observations from a re-analysis of the deposited data

Results flagged for a closer look

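The response of *Meg3* (A_51_P455997) to PJ34 differed between the genotypes by 0.81 on the log2 scale, wild-type minus Trp53-/- (q = 0.0476), by the test of the difference itself. The *Meg3* value was 0.55 without wild-type replicate 2 and 0.70 without Trp53-/- replicate 2, and neither passed. Benjamini-Hochberg adjustment and median centring, among other settings, also ended this call. The response of *Igfbp5* differed by 1.22 in the same direction (q = 0.00466).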

How the results depend on the processing

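Of 1298 values of member probes under the alternatives, 1092 kept their direction and side of the threshold or moved by less than the replicate spread, 89 newly passed, 53 no longer passed, 53 moved by more than the spread and 11 turned direction. Median centring turned, in wild-type, *Plagl1* A_55_P1961968 to 0.31 and *Snrpn* A_52_P354390 to 0.48, and in Trp53-/- *Plagl1* to 0.55 and 0.67, *Mest* to 0.39, 0.58 and 0.43, *Ndn* to 0.61 and *Snrpn* to 0.46 and 0.52, against a median of 0.57 over all probes there. Without wild-type replicate 2 the untreated *Grb10* difference was -0.38, and without replicate 1 it was 1.22. The cause was not tested.

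The number of member probes at q below 0.05 without the fold limit was 8 in wild-type, 7 in Trp53-/-, 1 for the difference and 2 in untreated cells. The scanner software's log ratios gave 3, 0 and 0 for the first 3 comparisons, and its processed control signal gave 0 in untreated cells. Median centring gave 18 in Trp53-/- (5 past 2-fold, against 0) and 0 for the difference. For the difference, no background correction, an offset of 16, the strict filter and Benjamini-Hochberg adjustment gave 0 each. In untreated cells, no filter, the strict filter, Benjamini-Hochberg adjustment and 1 probe per gene gave 1 each, with or without the fold limit, and the intensity trend gave 5. Reading 1 probe per gene gave 4 in Trp53-/-, since fewer probes are counted. Leaving out each array in turn gave 6 to 12 in wild-type, 4 to 10 in Trp53-/-, 0 to 4 for the difference and 0 to 17 in untreated cells, and past 2-fold 0, 0 to 2, 0 to 3 and 0 to 7. The untreated count was 0 without Trp53-/- replicate 1 or 2, 12 without wild-type replicate 1 and 17 without wild-type replicate 2.

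With the replicate number as a block, 8, 9, 1 and 10 probes passed without the fold limit and 0, 0, 0 and 4 past 2-fold, though nothing in the labels pairs the samples. The crossed pairing, chosen after seeing the data, gave 12, 12 and 2 for the ratios. Signal over background limits *Igf2*, 2 probes of *Meg3* and 1 of *H19*, which have no test.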
